A study of Arabidopsis thaliana with 6 samples.

Results

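The primary transcripts of miR165a, miR166a and miR166b (pri-miR165a, pri-miR166a and pri-miR166b) were examined in Arabidopsis thaliana leaf nuclei by DMS-MaPseq. They are the 3 amplicons of the miR165 and miR166 family among 19 amplicons measured, and they were chosen by name: 13 other amplicons are pri-miRNAs and 3 are mRNA fragments. Nuclear RNA came from leaves of 3-week-old plants of the chr2 mutant and of the accession Col (called Col-0 in the label of its mock library). The groups were chr2 treated with 1% dimethyl sulfate (DMS) for 30 min (2 libraries), Col treated in the same way (2 libraries), chr2 mock-treated with water (1 library) and Col mock-treated (1 library). The labels give neither the chr2 allele nor whether replicate libraries came from separate plants, and a p-value here covers the variation between libraries alone. All 6 libraries share the isolation of nuclei, reverse transcription with TGIRT-III and PCR with gene-specific primers. The series asks whether CHR2, a subunit of the SWI/SNF remodelling complex, changes the structure of pri-miRNAs.

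DMS methylates the pairing face of unpaired adenines and cytosines. The TGIRT-III enzyme reads through the methylated base and leaves a mismatch, so the mismatch rate of an A or C, the percent of base calls that differ from the amplicon sequence, is a measure of its accessibility. In plants a pri-miRNA folds into a hairpin from which the DICER-LIKE1 complex, with SERRATE (SE) and HYL1, cuts a duplex of the miRNA and its passenger strand, the miRNA*. The lower stem below the duplex and the terminal loop above it are known to guide where cutting starts. miR165 and miR166 repress the class III homeodomain leucine zipper genes, such as PHABULOSA and REVOLUTA, and are known for setting the lower side of leaves and for limiting the shoot meristem.

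The mature strands are shown to mark where the miRNA lies in each amplicon and how the members differ. The 21 nt were placed at the 16-nt run that all 3 amplicons share, and capitals mark bases 2 to 8, called the seed here.
miR165a: tCGGACCAggcttcatccccc
miR166a: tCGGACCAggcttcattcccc
miR166b: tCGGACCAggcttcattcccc
The seed was identical in all 3, and the miR165a and miR166 strands differed by the single substitution C17T, counted from the 5′ end of the miRNA. The opposite strands, taken as the predicted partners with a 2-nt 3′ overhang, are shown because miR165a also differs there.
miR165a*: ggaatgttgtctggatcgagg
miR166a*: ggactgttgtctggctcgagg
miR166b*: ggactgttgtctggctcgagg
Counted in the same way, the miRNA* of miR165a differed from that of miR166 by A4C and A15C. The duplexes of miR166a and miR166b were identical in sequence, and their amplicons shared a run of 36 nt that starts at position 89 of pri-miR166a and 161 of pri-miR166b.

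The hairpins are shown with the duplex strands in capitals, from the outer end of the lower stem on one arm to its end on the other.
pri-miR165a: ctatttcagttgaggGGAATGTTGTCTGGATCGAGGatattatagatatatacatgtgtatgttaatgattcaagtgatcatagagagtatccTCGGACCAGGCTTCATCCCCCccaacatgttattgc
pri-miR166a: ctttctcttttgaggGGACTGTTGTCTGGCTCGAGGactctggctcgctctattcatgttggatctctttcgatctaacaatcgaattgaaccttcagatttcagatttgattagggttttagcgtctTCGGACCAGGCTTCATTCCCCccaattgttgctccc
pri-miR166b: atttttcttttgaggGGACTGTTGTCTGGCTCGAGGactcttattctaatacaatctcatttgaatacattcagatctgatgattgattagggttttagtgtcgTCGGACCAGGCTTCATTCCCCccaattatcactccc
In each the miRNA* is on the 5′ arm and the miRNA on the 3′ arm. The amplicon of pri-miR165a (locus AT1G01183) had 302 nt with the miRNA at 195 to 215 and the miRNA* at 117 to 137, counted from the amplicon's 5′ end as all positions here. The amplicon of pri-miR166a (AT2G46685) had 293 nt, with the miRNA at 212 to 232 and the miRNA* at 99 to 119. The amplicon of pri-miR166b (AT3G61897) had 327 nt, with the miRNA at 260 to 280 and the miRNA* at 171 to 191.

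The minimum free energy folds of the amplicons were used to name regions. The lower stem is the 15 nt outside the duplex on each arm, the upper stem the predicted paired nucleotides between the duplex strands, and the terminal loop the unpaired ones there. Pri-miR166a had the longest stretch between the strands, 92 nt with 2 predicted hairpin loops, against 68 nt with 1 loop in pri-miR166b and 57 nt with 2 loops in pri-miR165a. In each precursor 17 of the 21 miRNA nucleotides were predicted to pair. After the 26 nt of each primer end were left out, 114 A/C positions remained in pri-miR165a, 110 in pri-miR166a and 133 in pri-miR166b. Each library held between 342449353 and 453222421 base calls over all amplicons. Median coverage of the libraries was between 31308 and 113715 in pri-miR165a, between 55033 and 87065 in pri-miR166a and between 36422 and 69127 in pri-miR166b, and no position of the 3 fell below 2076 calls. Intervals from these calls would cover counting error only. PCR copies carry no molecular identifiers, so coverage does not count RNA molecules.

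The 3 precursors differed most in how repeatable the DMS signal was. Pri-miR166a and pri-miR166b carried mismatches at more than 40 A/C positions in every DMS library, whereas pri-miR165a carried a handful, at different positions in each library. To describe this, a position was called raised in a library when its rate was at least 1% and at least 5 times that of both mocks, a rule set after the rates had been seen. Over all 16 pri-miRNAs, 49.4% of the 1785 inner A/C positions were raised in at least 1 DMS library and 8.91% in all 4. In pri-miR166a 74 of 110 positions were raised in at least 1 library and 22 in all 4, which is 20.0%, the third highest share of the 16. In pri-miR166b 78 of 133 were raised in at least 1 and 12 in all 4, which is 9.02%. In pri-miR165a 17 of 114 were raised in at least 1 and none in all 4 (0.00%), as in 5 of the other 13, and the median of the other 13 was 5.17%.

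Most of the raised positions of pri-miR165a were private to a library. Of its 17, 15 were raised in only 1 library, which is 88.2%, the highest share of the 16 pri-miRNAs, against a median of 41.7% in the other 13. The share was 20.3% in pri-miR166a, the lowest of the 16, and 26.9% in pri-miR166b. The correlation of log rates between 2 DMS libraries across positions, which share the amplicon's base composition and coverage, was between 0.430 and 0.721 in pri-miR166a, between 0.413 and 0.485 in pri-miR166b and between 0.125 and 0.250 in pri-miR165a.

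**Figure D1:**
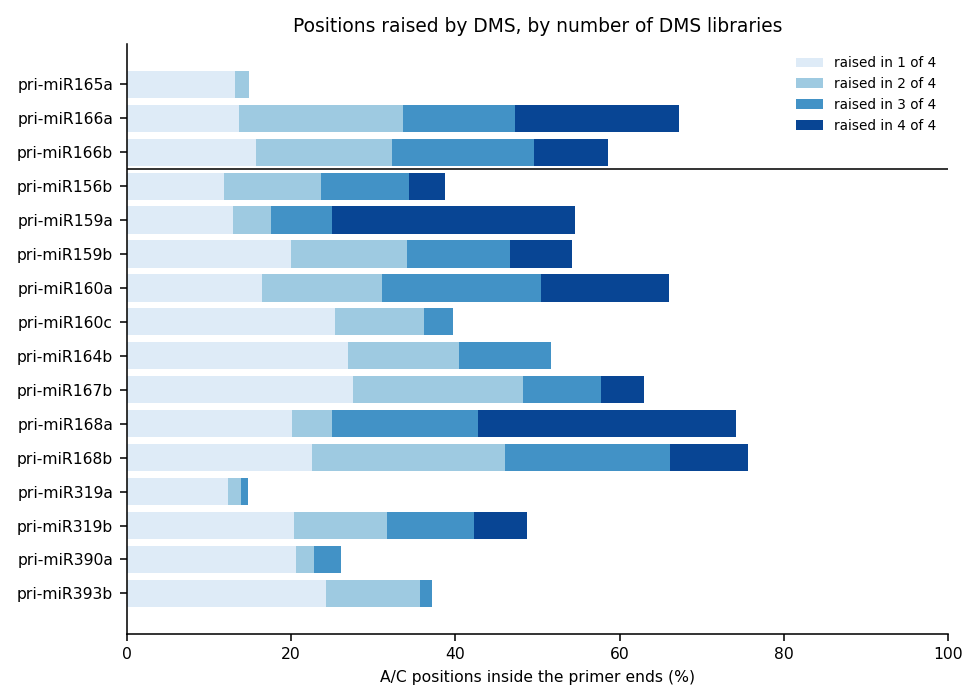
Share of A/C positions inside the primer ends that were raised in 1, 2, 3 or 4 of the 4 DMS libraries (percent, stacked bars), with the miR165 and miR166 precursors above the line and the other 13 pri-miRNAs below it. The bar of pri-miR165a reaches 14.9% with no segment for 3 or 4 libraries, while that of pri-miR166a reaches 67.3%.

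A rate was either near the mock or above 1% at most positions. In pri-miR166b 59.6% of the 532 values (133 positions in 4 DMS libraries) were below 0.2%, 6.20% were between 0.2 and 1%, and 34.2% were 1% or more. In pri-miR166a the same classes held 38.2%, 16.6% and 45.2% of 440 values. Where a position of pri-miR166b was raised in some DMS libraries and not in others, the median rate of the libraries in which it was not raised was 0.0463%, against a mock median of 0.0327% at these positions and a median of 4.44% for the raised values. In pri-miR166a the medians were 0.169% for values not raised, 0.0365% in the mocks and 2.98% for raised values. A position thus often stood at several percent in one replicate and near the mock in the other. This spread between replicates enters every test below.

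**Figure D2:**
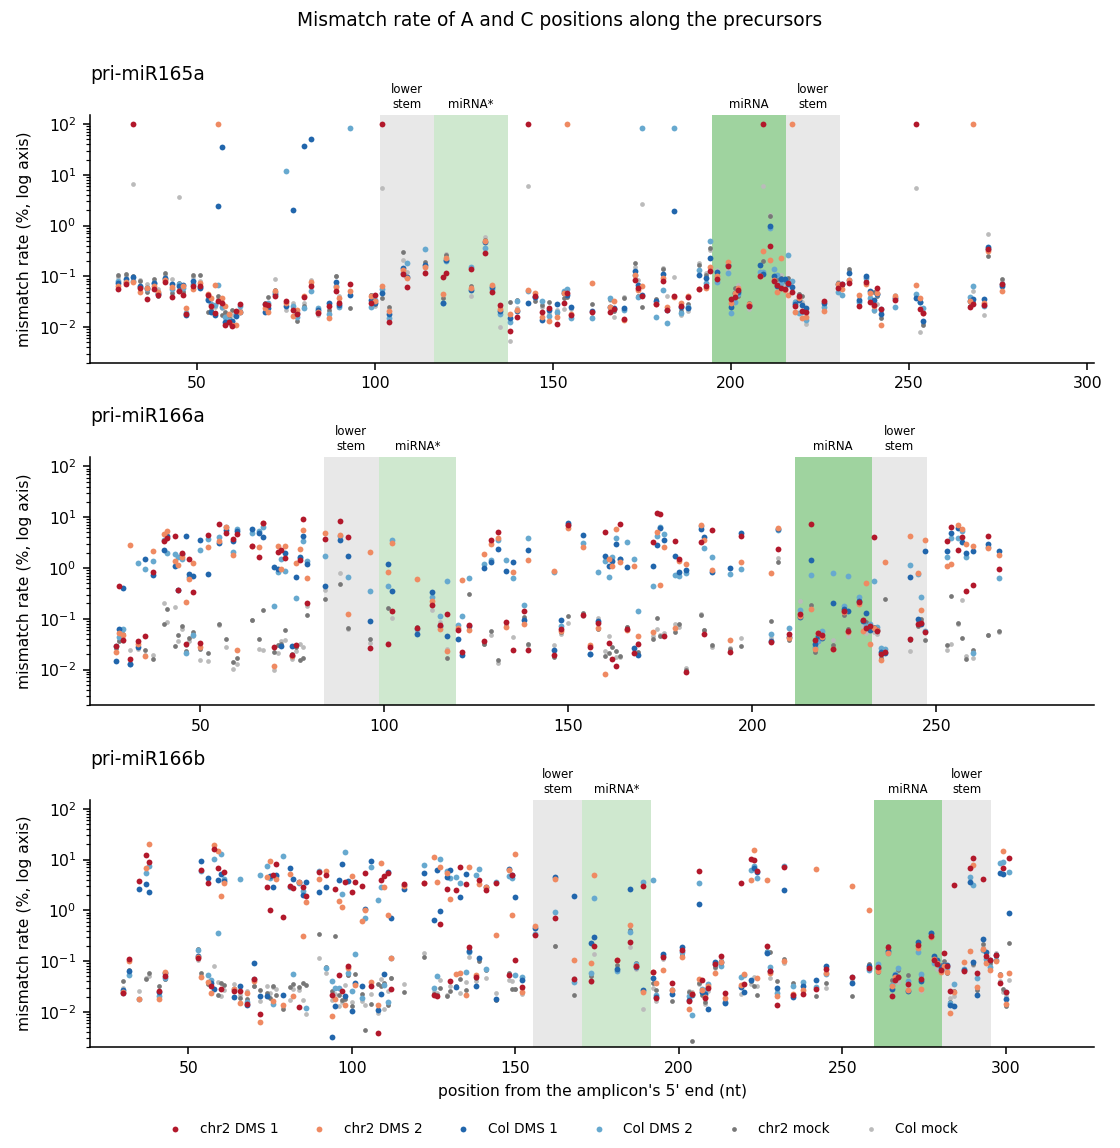
Mismatch rate (percent, log axis) of every A and C inside the primer ends along pri-miR165a, pri-miR166a and pri-miR166b, against position from the 5′ end (nt), with 1 point per library. Shading marks the lower stem, miRNA* and miRNA; raised DMS points of pri-miR166a and pri-miR166b lie between 1 and 20.2%, mostly in flanks and loop, and nearly all points in the miRNA lie close to the mocks, and pri-miR165a has isolated points up to 100%.

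The stretches of pri-miR166a and pri-miR166b where the signal recurred are printed with the A and C raised in 3 or 4 of the 4 DMS libraries in capitals. A stretch joins such positions that are at most 12 nt apart and holds at least 4 of them.
pri-miR166a 40 to 88, 5′ flank to lower stem: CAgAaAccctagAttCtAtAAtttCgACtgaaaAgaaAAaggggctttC
pri-miR166a 129 to 197, terminal loop and upper stem: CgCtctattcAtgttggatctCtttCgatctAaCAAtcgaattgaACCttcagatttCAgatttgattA
pri-miR166a 253 to 264, 3′ flank: ACtCCAtatttC
pri-miR166b 54 to 61, 5′ flank: CgaaCACA
pri-miR166b 74 to 149, 5′ flank: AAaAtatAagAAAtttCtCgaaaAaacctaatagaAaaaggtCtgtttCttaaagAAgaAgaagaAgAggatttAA
pri-miR166b 222 to 232, terminal loop and upper stem: ACAttcagatC
In pri-miR166a the recurring positions were 15 of 33 in the 5′ flank, 7 of 10 in the terminal loop, 8 of 29 in the upper stem, 6 of 8 in the 3′ flank and 1 of 12 in the lower stem. In pri-miR166b they were 27 of 67 in the 5′ flank, 5 of 5 in the terminal loop, none of 24 in the upper stem, 2 of 14 in the lower stem and 1 of 5 in the 3′ flank. In both precursors no position of the miRNA or the miRNA* was raised in more than 2 DMS libraries.

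DMS against mock was then tested at each A/C position with edgeR's quasi-likelihood test, fitted over all 19 amplicons with coverage as offset. Unlike the rates by region and the raised positions, this test kept the primer ends. In chr2, 13.0% of the 2597 positions tested were above mock at an adjusted p under 0.05, and in Col 13.2%. The 3 precursors had 25 of 427 positions above mock in chr2 and 25 in Col, a lower share than over all amplicons, mRNAs included, and a higher one than in the other 13 pri-miRNAs, which had 58 of 1715 in each genotype. These were 16 in chr2 and 16 in Col of the 134 tested in pri-miR166a, 14 of them shared, and 9 in chr2 and 9 in Col of the 155 tested in pri-miR166b, 6 of them shared. Pri-miR165a had none of 138 in either genotype, with 8 positions at an unadjusted p under 0.05 in each and 4 in chr2 and 7 in Col called by DESeq2. Over all amplicons 675 of 2597 positions in chr2 and 642 in Col had an unadjusted p under 0.05 in edgeR's test. Below mock, pri-miR165a had C291 in chr2 and C45 in Col, 1 of 138 each, and the other precursors none, where 0.0770% of all positions were below mock in chr2 and 0.0770% in Col. C45 had 0.0522 and 0.0514% in chr2 DMS libraries, 0.0649 and 0.0702% in Col DMS libraries, 0.0741% in the chr2 mock and 3.72% in the Col mock, and both are named after their values were seen. C291 lies in a primer end, and inside the primer ends alone no position of the 3 was called below mock in either genotype. Each mock is 1 library and its spread is assumed to be that of the DMS libraries. Without any one of the 4 DMS libraries edgeR called none of the 427 in either genotype, and DESeq2 called 116 in chr2 and 130 in Col (37.8% and 37.7% of all positions).

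Most of the positions above mock lay in the flanks, and the rest in the terminal loop and the upper stem. In pri-miR166a 10 of the 16 in chr2 and 10 of the 16 in Col were in the 5′ flank, 2 and 2 in the terminal loop, 2 and 3 in the upper stem, and 2 and 1 in the 3′ flank. In pri-miR166b 8 of 9 in chr2 and 7 of 9 in Col were in the 5′ flank, with C223 of the terminal loop in both genotypes. None lay in the miRNA, the miRNA* or the lower stem of any of the 3. The median log2 ratio of DMS over mock over the tested positions was 3.06 in chr2 and 3.48 in Col for pri-miR166a, 0.78 and 0.61 for pri-miR166b, and −0.21 and −0.15 for pri-miR165a, beside 0.75 and 0.74 over all positions tested. Inside the primer ends only, these medians were 4.32 in chr2 and 4.27 in Col for pri-miR166a, 2.98 and 1.91 for pri-miR166b, and −0.11 and −0.09 for pri-miR165a, beside 3.00 and 2.99 over all amplicons.

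C223 in the terminal loop of pri-miR166b had the highest mean DMS rate among the positions that passed. Its rates were 9.97 and 15.2% in chr2 DMS libraries and 6.82 and 7.30% in Col DMS libraries, against 0.0326% in the chr2 mock and 0.0477% in the Col mock. All 4 DMS rates were far above both mocks, with adjusted p = 0.0360 in chr2 and 0.0401 in Col, and the groups did not overlap, chr2 being higher. The log2 ratio of chr2 over Col was 0.78 with an adjusted p of 0.959 (edgeR).

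A more even position was C150, in the terminal loop of pri-miR166a, at 7.07 and 6.03% in chr2 DMS libraries and 7.54 and 6.98% in Col DMS libraries, against 0.114% in the chr2 mock and 0.0809% in the Col mock. It passed edgeR's test in both genotypes (adjusted p = 0.0453 in chr2 and 0.0401 in Col), and both chr2 DMS rates fell inside or below the Col range, with overlap. In the 5′ flank of pri-miR166a, A57 had 4.89 and 6.45% in chr2 and 5.57 and 6.41% in Col, and C67 had 7.66 and 7.73% in chr2 and 4.10 and 6.29% in Col. Both were predicted to be unpaired and passed in both genotypes, and the chr2 rates of C67 lay above those of Col without overlap. A78, near the end of that flank, had 9.40 and 5.58% in chr2 and 4.21 and 3.33% in Col, and it too passed in both. C37 of the 5′ flank of pri-miR166b had 12.5 and 6.93% in chr2 and 3.34 and 5.53% in Col. It passed in chr2 (adjusted p = 0.0425) and not in Col (adjusted p = 0.0519), and the test of the difference between genotypes gave an adjusted p of 0.871.

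Other high positions recurred less evenly. C58 of pri-miR166b, which had the highest mean DMS rate of that precursor, had 15.9 and 19.3% in chr2 DMS libraries and 0.0284 and 10.2% in Col DMS libraries. One Col replicate was thus at the level of the chr2 mock, 0.0286%, and C58 did not pass in either genotype. C38 beside C37 had 8.85 and 20.2% in chr2 and 2.34 and 7.60% in Col, without overlap and without passing. C175 in the loop of pri-miR166a had 11.8 and 0.461% in chr2 and 6.06 and 6.27% in Col, the second chr2 replicate standing apart.

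Pri-miR165a had 13 A/C positions above 50%, each in a single DMS library. In chr2 replicate 1 they were C32, C102, A143, A209 and A252, at 99.1 to 100.0%. In chr2 replicate 2 they were A56, C154, C217 and A268, at 99.6 to 99.9%. Col replicate 1 had C82 at 50.5%, and Col replicate 2 had A93, A175 and A184 at 84.2 to 85.4%. No position was above 50% in 2 libraries, and in the other DMS libraries these positions were at most 2.39%. At each of the 13, a single substitution made up at least 99.8% of the mismatches, for example C32T, C102G and A143T (amplicon base, position, base called).

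The same 5 substitutions that filled chr2 replicate 1 were present in the Col mock at 5.51 to 6.50% of calls and in the chr2 mock at no more than 0.0823%. The substitutions of the other DMS libraries did not recur in the Col mock: A175 had a mismatch rate of 2.65% in the Col mock, but A175T, its substitution in Col replicate 2, made up 0.0166% of calls there. A209 is base 15 of miR165a itself and is predicted to be paired, and C102 and C217 lie in the lower stem, also in predicted pairs. Pri-miR166a and pri-miR166b had no A/C position above 50%. Of the other 13 pri-miRNAs, 3 had such positions, 19 in all (pri-miR393b, pri-miR319a and pri-miR390a). How these substitutions arose was not tested.

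The make-up of the mismatches differed between the precursors in the same direction. All 19 raised values of pri-miR165a had 1 base behind more than 95% of the mismatches, as did 73.1% of the 182 raised values of pri-miR166b and 42.7% of the 192 of pri-miR166a. The share of mismatches to T was taken at each raised position and averaged over positions within a DMS library. In pri-miR166a this mean share was 65.3 to 78.4% at A and 49.5 to 72.3% at C. In pri-miR166b it was 56.7 to 73.7% at A and 42.1 to 62.1% at C. In pri-miR165a the mean share of A to T lay anywhere between 0.0121 and 99.4% by library. In pri-miR166a C had a higher mean rate than A in every DMS library, as in both mocks. The means were 1.61 ± 0.207% for A and 1.87 ± 0.0280% for C in chr2 and 1.41 ± 0.0374% for A and 1.83 ± 0.0682% for C in Col (SD, n = 2 each).

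Mean rates over the inner A/C positions were compared next. Pri-miR166a had 1.82 and 1.65% in chr2 DMS libraries and 1.61 and 1.62% in Col DMS libraries, with 0.0798% in the chr2 mock and 0.0793% in the Col mock. Its chr2 values lay just above those of Col. Pri-miR166b had 2.02 and 2.00% in chr2 and 1.52 and 2.01% in Col, with 0.0670 and 0.0548% in the chr2 and Col mocks, and the groups overlapped. With limma over the 16 pri-miRNAs the ratio of chr2 over Col was 1.04 (95% interval 0.778 to 1.38) for pri-miR166a and 1.11 (0.708 to 1.75) for pri-miR166b, with an adjusted p of 0.945 for each. Both intervals include a ratio of 1.

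The mean of pri-miR165a was set by its private positions. With the 5 positions above 5% in a mock left out, as in every mean here, it had 0.0540 and 3.72% in chr2 DMS libraries and 1.25 and 2.51% in Col DMS libraries, with 0.0805% in the chr2 mock and 0.143% in the Col mock. The first chr2 library thus stood below both mocks. With those positions kept, the values were 4.43 and 3.56% in chr2 and 1.19 and 2.41% in Col. The ratio of chr2 over Col was 0.245 (0.00145 to 41.5, adjusted p = 0.945, limma) without them and 2.27 (1.00 to 5.15, adjusted p = 0.546) with them, so its direction depends on that choice. Without chr2 replicate 1 the log2 ratio was 1.03. The median rate per position of pri-miR165a was 0.0402 to 0.0476% in all 4 DMS libraries.

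By mean rate over the DMS libraries pri-miR166b ranked 6, pri-miR165a 7 and pri-miR166a 11 of the 16 pri-miRNAs, and pri-miR165a ranked 1 when positions high in a mock were kept. The neighbours 6 and 7 do not differ beyond the spread of pri-miR165a. The amplicons closest to each precursor in log2 mean rate over the 6 libraries (Euclidean distance) were pri-miR159a (0.233) and pri-miR159b (0.498) for pri-miR166a, and pri-miR167b (0.380) and pri-miR168a (0.383) for pri-miR166b. For pri-miR165a the closest were pri-miR319b at 4.93 and pri-miR164b at 5.28, many times the distances of the other members.

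By region, the terminal loop and the flanks of the miR166 precursors were above their duplex in every DMS library. In pri-miR166a the terminal loop averaged 3.73 and 3.24% in chr2 DMS libraries and 3.77 and 3.68% in Col DMS libraries, 7.66 to 14.4 times the duplex (the miRNA and miRNA* together) of the same library. In pri-miR166b the loop averaged 7.78 and 3.88% in chr2 and 3.29 and 5.76% in Col, 10.2 to 28.6 times the duplex. In the mocks the ratio was 1.98 to 2.47 in pri-miR166a and 0.381 to 0.535 in pri-miR166b. Over the 3 precursors the loop was above the duplex in 11 of 12 pairs of precursor and DMS library, the exception being pri-miR165a in chr2 replicate 1. In pri-miR165a the ratio was 0.399 and 95.6 in chr2 and 1.66 and 134 in Col, against 0.256 in the chr2 mock and 1.75 in the Col mock. The large ratios fell in the libraries where C154 (chr2 replicate 2) or A175 and A184 (Col replicate 2), all in the loop, were above 50%. The flanks of pri-miR166a were 4.66 to 8.59 times its duplex, and those of pri-miR166b 7.45 to 9.91 times.

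Both flanks of the hairpin were reactive. The 5′ flank of pri-miR166a had 2.16 and 1.97% in chr2 and 2.01 and 2.00% in Col, and its 3′ flank 2.75 and 3.12% in chr2 and 3.22 and 2.47% in Col. In pri-miR166b the 5′ flank had 2.63 and 2.92% in chr2 and 2.34 and 2.87% in Col, and the 3′ flank, with 5 positions, 3.58 and 3.02% in chr2 and 2.36 and 4.75% in Col. The genotypes overlapped in all 4 flanks. The 3′ flank was higher than the 5′ flank in every DMS library of both precursors, as it was in their mocks. This order rests on few positions in pri-miR166b: with primer ends of 30 nt its 3′ flank keeps 1 position, at 0.133 and 0.101% in chr2 and 0.133 and 0.105% in Col, below the 5′ flank in every DMS library.

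The upper stem separated the 2 miR166 precursors. In pri-miR166a it had 1.38 and 1.07% in chr2 and 1.14 and 1.31% in Col, against chr2 and Col mocks of 0.0531 and 0.0479%, and 17 of its 29 positions were raised in at least 1 library. In pri-miR166b it had 0.199 and 0.635% in chr2 and 0.0548 and 0.215% in Col, with 6 of 24 positions raised. It lay below the duplex of pri-miR166b in 3 of 4 DMS libraries, and above that of pri-miR166a in all 4. The fold predicts these positions to be paired in both. C131 of pri-miR166a, a predicted pair next to the loop, had 5.14 and 3.89% in chr2 and 2.32 and 3.50% in Col, was above the chr2 mock of 0.0152% and the Col mock of 0.0132%, and passed in both genotypes. It is named after its values were seen.

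**Figure D3:**
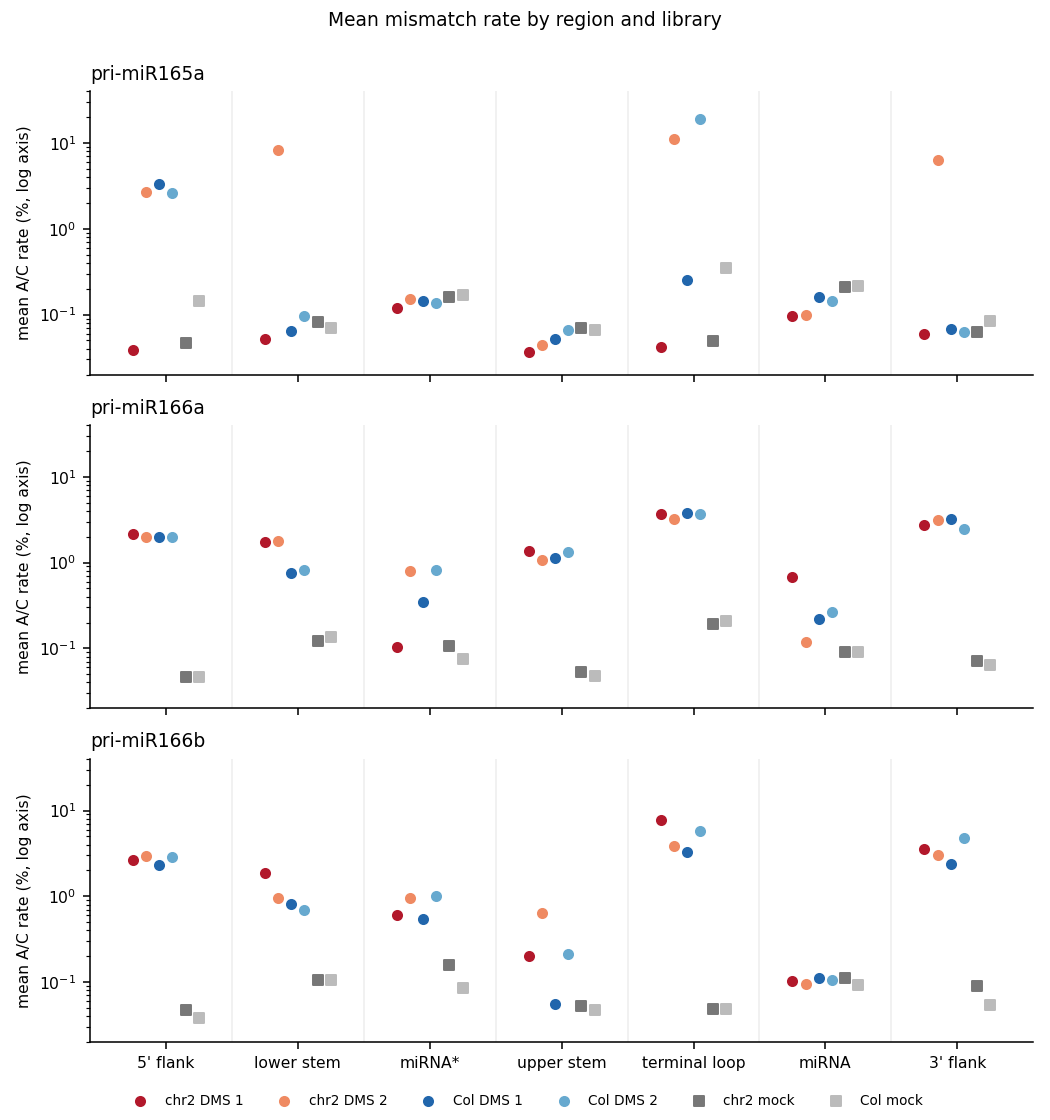
Mean mismatch rate of A and C (percent, log axis) in 7 regions of each precursor, with 1 circle per DMS library and 1 square per mock library. In pri-miR166a and pri-miR166b the terminal loop and flanks lie above the miRNA, and in the lower stem both chr2 circles lie above both Col circles.

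In the lower stem chr2 lay above Col without overlap in both miR166 precursors, by a wide gap in pri-miR166a and a small one in pri-miR166b. In pri-miR166a it had 1.72 and 1.81% in chr2 DMS libraries and 0.746 and 0.823% in Col DMS libraries, with mocks at 0.123% in chr2 and 0.137% in Col. In pri-miR166b it had 1.88 and 0.964% in chr2 and 0.815 and 0.692% in Col, with chr2 and Col mocks at 0.106 and 0.105%. The means were 1.76 ± 0.0621% in chr2 and 0.785 ± 0.0541% in Col for pri-miR166a, and 1.42 ± 0.647% in chr2 and 0.753 ± 0.0870% in Col for pri-miR166b (SD, n = 2 each). The groups did not overlap, with an exact two-sided permutation p of 0.333 in each, the smallest that 2 against 2 libraries allow. With a lower stem of 20 nt, pri-miR166b averaged 1.63 ± 0.182% in chr2 and 1.32 ± 0.200% in Col (SD, n = 2 each), with almost no gap between the lower chr2 and the higher Col library, and pri-miR166a had 1.60 and 1.72% in chr2 and 0.780 and 0.866% in Col. Among all 21 regions of the 3 precursors the groups did not overlap in 5 (23.8%). The others were the miRNA and the upper stem of pri-miR165a and the miRNA of pri-miR166b, in all of which chr2 was the lower. In the miRNA of pri-miR165a the gap lay mainly at C211, with 0.394 and 0.208% in chr2 and 0.974 and 0.880% in Col. At least 87.5% of the mismatches at C211 in a DMS library were to T, the base of miR166 there.

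Different positions made up the lower stem rate in each library. In pri-miR166a only C84 and C88 were raised in both chr2 libraries. C84 had 3.73 and 4.84% in chr2 and 0.433 and 1.71% in Col, and C88 had 8.36 and 4.40% in chr2 and 3.58 and 4.21% in Col. C84 and C88 differ from pri-miR166b and carried its base at up to 0.767% in a mock. C90 (4.14%) and C233 (4.01%) were raised in chr2 replicate 1 and lay at 0.125 and 0.0656% in chr2 replicate 2, whereas A96 (2.11%), C243 (4.25%) and C247 (3.57%) were raised in chr2 replicate 2 and lay at 0.0268, 0.0397 and 0.0556% in chr2 replicate 1. In pri-miR166b A290 was raised in both chr2 libraries, at 10.6 and 7.95%, and in Col it had 0.0953 and 3.12%. C289 had 6.83 and 0.158% in chr2 and 3.62 and 4.57% in Col. These positions were named after their values were seen, and none differed between genotypes at an adjusted p under 0.05 (edgeR).

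Without the positions that carry the related precursor's base in both mocks, an alternative chosen after seeing the data, the lower stem had 0.853 and 1.24% in chr2 and 0.494 and 0.395% in Col for pri-miR166a. For pri-miR166b it had 2.00 and 1.00% in chr2 and 0.843 and 0.719% in Col, so the groups still did not overlap. The lower stem of pri-miR165a had 0.0521 and 8.35% in chr2 and 0.0650 and 0.0974% in Col, where C217 at 99.6% made the second chr2 value.

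The miRNA strands stayed close to mock outside pri-miR166a, and the miRNA* of the miR166 precursors mostly lay further above it. The miRNA of pri-miR166b had 0.103 and 0.0951% in chr2 DMS libraries and 0.112 and 0.104% in Col DMS libraries, with 0.112% in the chr2 mock and 0.0935% in the Col mock. The miRNA of pri-miR166a had 0.678 and 0.118% in chr2 and 0.221 and 0.263% in Col, with chr2 and Col mocks at 0.0912 and 0.0901%. The miRNA of pri-miR165a had 0.0975 and 0.0989% in chr2 and 0.160 and 0.143% in Col, all below its chr2 and Col mocks at 0.208 and 0.215%. This order came mainly from C211, at 1.54% in the chr2 mock and 1.65% in the Col mock, mostly calls of the miR166 base T. The mean of this strand leaves out A209, which was at 99.1% in chr2 replicate 1 and at 5.93% in the Col mock. The miRNA* of pri-miR166a had 0.104 and 0.799% in chr2 and 0.344 and 0.822% in Col, with chr2 and Col mocks at 0.108 and 0.0751%. It was above the miRNA in 3 of 4 DMS libraries, and in chr2 replicate 1 it was below the miRNA and below the chr2 mock. The miRNA* of pri-miR166b had 0.609 and 0.951% in chr2 and 0.550 and 0.999% in Col, with chr2 and Col mocks at 0.159 and 0.0856%, above its miRNA in all 4. In pri-miR165a the miRNA* stayed at 0.119 and 0.152% in chr2 and 0.142 and 0.135% in Col, below both mocks.

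Since the seed is identical, single bases of the miRNA can be set side by side. Base 5, an A in a predicted mismatch of the duplex, had 7.21 and 0.159% in chr2 and 1.42 and 0.719% in Col in pri-miR166a (A216). The same base in pri-miR166b (A264) had 0.192 and 0.147% in chr2 and 0.159 and 0.146% in Col, within or below its chr2 and Col mocks at 0.200 and 0.183%. In pri-miR165a (A199) it had 0.163 and 0.190% in chr2 and 0.165 and 0.114% in Col. Base 5 of pri-miR166a was thus raised in 2 of 4 DMS libraries, 1 of each genotype, and in no library of the other precursors with the same sequence. Base 11 of pri-miR166a (C222) had 0.0250 and 0.0254% in chr2 and 0.202 and 0.782% in Col, against chr2 and Col mocks of 0.0305 and 0.0388%, and in pri-miR166b and pri-miR165a it was at most 0.0407% in a DMS library. The other bases of the seed, 2, 6, 7 and 8, had at most 0.151% in any DMS library of any of the 3.

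The duplexes of these precursors are nearly the same, and the sequenced fragments were 50 to 200 bp long. Calls of a related precursor's base were therefore counted where the sequences differ. At the base before the miRNA, pri-miR166a has T and pri-miR166b has G. The call T211G was made in 1.41 and 1.72% of calls in chr2 DMS libraries and 1.93 and 2.02% in Col DMS libraries, with 1.46% in the chr2 mock and 1.88% in the Col mock. The reverse call in pri-miR166b, G259T, made up 1.98 and 2.27% in chr2, 2.48 and 2.07% in Col, and 2.96 and 2.33% in the chr2 and Col mocks. DMS and mock libraries were alike here, and neither base is an A or a C.

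A base 4 nt further out, T255C of pri-miR166b, was at 1.45 and 1.71% in chr2 DMS libraries and 1.97 and 1.52% in Col DMS libraries, with 2.19% in the chr2 mock and 1.77% in the Col mock. At its counterpart C207 of pri-miR166a, a C that DMS can mark, C207T was at 1.20 and 2.76% in chr2 and 1.73 and 3.94% in Col, with 1.29% in the chr2 mock and 1.57% in the Col mock, so 3 of 4 DMS libraries were above both mocks. At base 17 of the miRNA, the one difference from miR166, C211T of pri-miR165a was at 0.376 and 0.182% in chr2 DMS libraries and 0.960 and 0.845% in Col DMS libraries, below the 1.51% of the chr2 mock and 1.63% of the Col mock. On the miRNA* of pri-miR165a, A131C was at 0.262 and 0.461% in chr2 and 0.420 and 0.324% in Col, with chr2 and Col mocks at 0.477 and 0.587%. The miRNA* of pri-miR166a and pri-miR166b is identical, so calls within it cannot be told apart between the 2 where a fragment holds no other difference. Rates in the duplexes carry this limit.

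**Figure D4:**
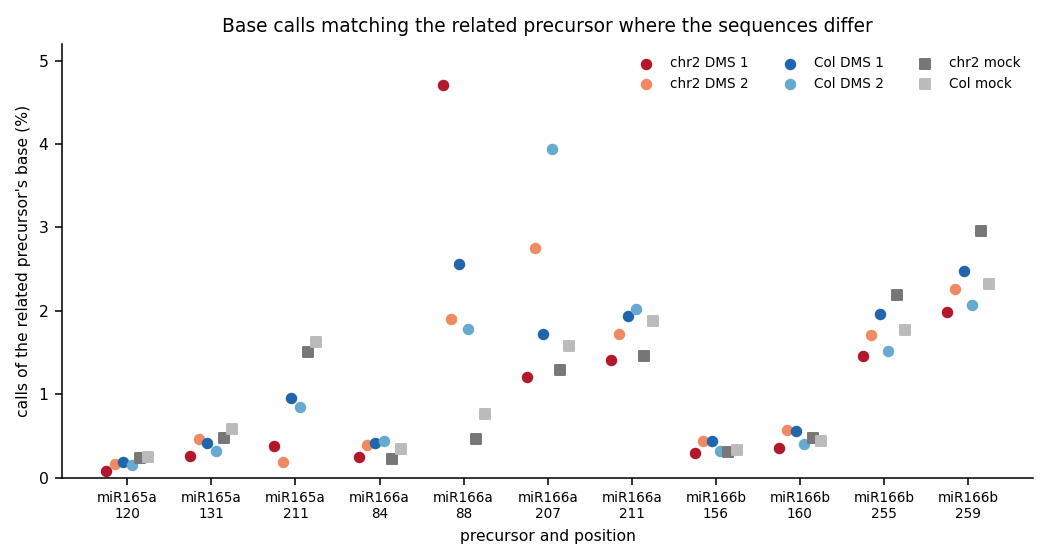
Percent of base calls that match the related precursor (pri-miR166b for pri-miR166a, pri-miR166a for pri-miR166b, miR166 for pri-miR165a) at the 11 positions where this exceeded 0.2% in both mocks, with 1 circle per DMS library and 1 square per mock library. Mock squares reach 2.96% at position 259 of pri-miR166b, and circles stand clear above the squares at C88 and, in 2 libraries, C207 of pri-miR166a.

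In the miR166 precursors the rates followed the predicted fold in part, with unpaired positions tending to be higher than paired ones. The area under the ROC curve (AUC), the chance that a predicted unpaired A/C has a higher rate than a paired one, was 0.753 and 0.802 in chr2 DMS libraries and 0.797 and 0.775 in Col DMS libraries for pri-miR166a, against 0.541 in the chr2 mock and 0.512 in the Col mock. For pri-miR166b it was 0.728 and 0.696 in chr2 and 0.723 and 0.711 in Col, against chr2 and Col mocks of 0.421 and 0.472. For pri-miR165a it was 0.650 and 0.621 in chr2 and 0.641 and 0.686 in Col, near its chr2 and Col mocks of 0.589 and 0.653. The averages over the DMS libraries, 0.782, 0.715 and 0.650, compare with a range of 0.456 to 0.798 and a median of 0.670 in the other 13 pri-miRNAs.

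No A/C position differed between chr2 and Col in the edgeR test, in the 3 precursors (0 of 426) or in any amplicon (0.00% of 2594). In the 3 precursors 21 of 426 positions had an unadjusted p under 0.05, beside 110 of 2594 over all amplicons and 84 of 1713 in the other pri-miRNAs. The smallest adjusted p was 0.254. The limma test on log2 rates also called none, with a smallest adjusted p of 0.0698, and DESeq2 called 18 higher and 27 lower in chr2 (5.98% higher and 5.13% lower over all amplicons). The median log2 ratio of chr2 over Col was −0.10 in the 3 precursors and 0.01 over all positions tested.

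Among the positions with the smallest p, A106 and A110 of pri-miR166b and A50 of pri-miR166a stood high in both libraries of one genotype and near mock level in the other. A106 in the 5′ flank of pri-miR166b had 0.0325 and 0.0380% in chr2 DMS libraries and 9.27 and 7.06% in Col DMS libraries, against 0.0146% in the chr2 mock and 0.0222% in the Col mock. It was above mock in Col (adjusted p = 0.0366) and not in chr2, with a log2 ratio of chr2 over Col of −7.88 (adjusted p = 0.254). A110, 4 nt away, went the other way, with 4.70 and 2.89% in chr2 and 0.0546 and 0.0345% in Col (log2 ratio 6.35, adjusted p = 0.254). A50 in the 5′ flank of pri-miR166a had 0.0333 and 0.0283% in chr2 and 3.57 and 2.24% in Col (log2 ratio −6.59, adjusted p = 0.254). In pri-miR165a the smallest p in each direction fell to positions near or below mock. A188 had 0.0387 and 0.0414% in chr2 and 0.0237 and 0.0249% in Col, with chr2 and Col mocks at 0.0290 and 0.0208%. A191 had 0.0566 and 0.0576% in chr2 and 0.104 and 0.134% in Col, with chr2 and Col mocks at 0.167 and 0.180%.

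Among the A/C positions raised in at least 1 DMS library, the groups did not overlap at 23 of 74 in pri-miR166a, 10 with chr2 above and 13 with chr2 below. They did not overlap at 21 of 78 in pri-miR166b, 13 with chr2 above and 8 below, and at 2 of the 12 within the mock limit in pri-miR165a. The shares of 31.1% and 26.9% in the miR166 precursors stand beside 31.0% over all pri-miRNAs, so the groups parted about as often in these precursors as in others. Of all splits of 4 distinct values into 2 against 2, a share of 0.333 leaves no overlap. Lack of overlap at a position therefore does not by itself mark a genotype difference.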

How the data were processed

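DMS-MaPseq base calls were analysed for 4 DMS-treated and 2 mock-treated leaf libraries. Per the labels' protocols, nuclear RNA (5 µg) was reverse transcribed with TGIRT-III, amplified with gene-specific primers and fragmented to 50 to 200 bp. The deposited files hold counts of A, C, G and T calls per amplicon position, unnormalized, per the file headers. BWA, cutadapt, Picard and SAMtools 1.5 are listed per the submitters' processing notes. The role of each tool, the genome build and the handling of duplicates or of reads shared by related amplicons are not stated.

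The rate is the share of calls other than the amplicon base. Positions above 5% in a mock were left out, and tests needed a coverage of 100 and 10 mismatches. Mismatch counts were tested with edgeR 4.0.16 (quasi-likelihood, offset log coverage, with a size factor for chr2 against Col, Benjamini-Hochberg adjustment over all amplicons), mean rates with limma 3.58.1, and DESeq2 1.42.0 was an alternative. The edgeR position tests and the limma test of mean rates were tried on simulated data. Folds came from ViennaRNA 2.7.2. The miRNA was located by its shared run, without a miRNA table. Named positions were the first 6 past edgeR by mean rate, per precursor the 3 highest by mean, all above 50%, the smallest p in each direction between genotypes, and the miRNA bases; others are marked. The members and lists were chosen with earlier results of these data known. Intervals are 95%. Alternatives were other tools, scalings, filters, folds, region borders, a replicate block and each library left out. The labels do not say whether a replicate number marks a shared batch, so the main tests did not pair the samples. Same-numbered libraries' deviations correlated at 0.0298, which cannot show whether those libraries were prepared together.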

Additional observations from a re-analysis of the deposited data

Results flagged for a closer look

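The miRNA strand of pri-miR166b was below its mock in both chr2 DMS libraries, by −0.00883 and −0.0171 percentage points of mean A/C mismatch rate, and above its mock in both Col DMS libraries, by 0.0180 and 0.0110 percentage points. The difference between the genotypes was not tested beyond this, each mock is 1 library, and all 6 values lay between 0.0935 and 0.112%.

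G and T positions, which DMS does not mark in the way it marks A and C and which the comparisons above do not use, were also raised by the same rule in places. Inside the primer ends 11 of 131 G/T positions of pri-miR166a and 16 of 142 of pri-miR166b were raised in at least 1 DMS library, 1 of them in more than 1 library, and none of 136 in pri-miR165a. These counts were not compared with the other pri-miRNAs, so they do not show whether such positions are particular to these precursors. EdgeR's test of DMS against mock, with primer ends kept, called 0 of 468 G/T positions of the 3 precursors in each genotype. Over all amplicons it called 0 of 2840 G/T positions in each genotype. The source of the raised G/T positions was not tested.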

How the results depend on the processing

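The counts above mock, 25 in each genotype, were 0 to 0 over the fits without one DMS library, and DESeq2 gave 116 in chr2 and 130 in Col; the other filters kept them within 1.5 times. For chr2 against Col DESeq2 called 45 positions where edgeR called 0. The log2 ratio of mean rates turned sign for pri-miR165a with positions high in a mock kept (1.18) and for pri-miR166a with mRNA scaling (−0.077). Without one library it ranged from −5.08 to 1.03 for pri-miR165a, −0.016 to 0.12 for pri-miR166a and −0.070 to 0.38 for pri-miR166b, and no adjusted p was under 0.05. The mean AUC over the 3 precursors, 0.708 in chr2 and 0.722 in Col, was 0.690 and 0.705 with unpaired probability above 0.5, and 0.703 in chr2 with no mock limit. Without one library it was 0.706 to 0.710 in chr2 and 0.720 to 0.724 in Col. The loop lay above the duplex in 11 of 12 pairs, and in 11 or 12 of 12 under every other setting. Without one library it did so in 8 or 9 of the 9 pairs that remain. With mock rates subtracted pri-miR165a could not be fitted, since chr2 replicate 1 fell below 0. The cause of these changes was not tested.

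The replicate block left 0 positions between chr2 and Col, and pri-miR165a kept a log2 ratio of −2.03 with an adjusted p of 0.140. Same-numbered libraries' deviations correlated at −0.0775 in the 3 precursors, which does not settle whether they shared a batch. The block was not used in the main tests, since the labels name no shared batch.

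The single mock per genotype and the 2 DMS libraries limit these tests, and base calls without molecular identifiers do not show how many RNA molecules each value rests on.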
